A study of Bos taurus with 6 samples.

Results

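The genes described here are 10 components of transforming growth factor beta (TGF-beta) signalling. Among them are the ligands TGFB1, TGFB2 and TGFB3, the activin subunit INHBA and the receptors TGFBR1, TGFBR2 and TGFBR3. The others are LTBP1 and LTBP2, of the latent TGF-beta binding protein family, and the induced matrix protein TGFBI. All 10 were chosen by symbol from the 28200 rows of the count table, taking the most-counted row of a symbol. Each symbol had 1 row, and all 10 were among the 13390 genes that passed the filter on low counts. RNA was sequenced from mammary epithelial cells isolated from Holstein breast tissue and grown as primary cultures, in 3 libraries of unedited wild-type cells and 3 libraries of cells in which CRISPR/Cas9 had been used to knock out KLF6. No treatment, time or age separates the groups, and whether libraries of a genotype are separate cultures, clones or aliquots is not stated, so p-values measure the spread between these libraries only, which may be technical.

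TGF-beta ligands are made as precursors. The protease furin cuts the growth factor from its propeptide, which stays wrapped around it and keeps it inactive, and latent TGF-beta binding proteins (LTBPs) tie this complex to the extracellular matrix until integrins, proteases or thrombospondin release the ligand. Free ligand binds the type II receptor TGFBR2, which phosphorylates the type I receptor TGFBR1, and TGFBR1 then phosphorylates SMAD2 and SMAD3. In the mammary gland TGF-beta is known for restraining epithelial growth and for inducing matrix genes, and KLF6, a zinc-finger transcription factor, is known from other cells to activate promoters of TGFB1 and of its receptors.

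Total counts ranged from 17512892 to 18724879 per library. KLF6 itself stood at 502, 496 and 557 CPM (counts per 1e+06 counts of the scaled library) in wild-type libraries and at 224, 230 and 217 CPM in knockout libraries. All knockout libraries were lower, by 2.32-fold, with an edgeR adjusted p = 2.255e-13, and reads per gene do not show where the edit lies. The variance between wild-type replicate 3 and its fellow libraries was 10.3 and 10.5 times that of counting alone, while it was 2.40 to 3.20 times for the remaining pairs of 1 genotype. The epithelial adhesion genes EPCAM (165 ± 10.6 CPM in wild type and 167 ± 5.35 in knockout, SD, n = 3) and CDH1 (306 ± 6.26 and 290 ± 5.51 CPM) were read in both genotypes and were not called. The remaining 5 tested luminal epithelial markers were read in both as well and were lower in knockout, namely the keratins KRT8 (log2 fold change -1.63), KRT18 (-1.76) and KRT19 (-2.89), the transcription factor ELF3 (-2.28) and the mucin MUC1 (-2.30).

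Knockout libraries held about 20 times more LTBP1 RNA and 18 times more INHBA RNA than wild-type libraries, around 2 times more TGFB2, TGFB3 and TGFBI RNA, and more TGFBR2 RNA. LTBP2, TGFBR3 and, by a small margin, TGFBR1 RNA were lower, and TGFB1 RNA did not pass the test. In all, 6 of the 10 genes rose and 3 fell in edgeR (quasi-likelihood F-test, p-values adjusted by Benjamini-Hochberg over all tested genes, threshold 0.05). That is 9 called of 10, beside 74.6% of all tested genes called, 37.1% higher and 37.6% lower, so the count of calls lies near the background and the sizes carry the description. A change of at least 2-fold was called for 6 of the 10, 4 higher and 2 lower, beside 22.3% of all tested genes. The median log2 fold change of the 10 genes was 0.74, beside -0.01 over all tested genes, and their median size of change regardless of direction was 1.13 beside 0.50. In bulk RNA, fewer cells that express a gene and less of its RNA per cell cannot be told apart.

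**Figure D1:**
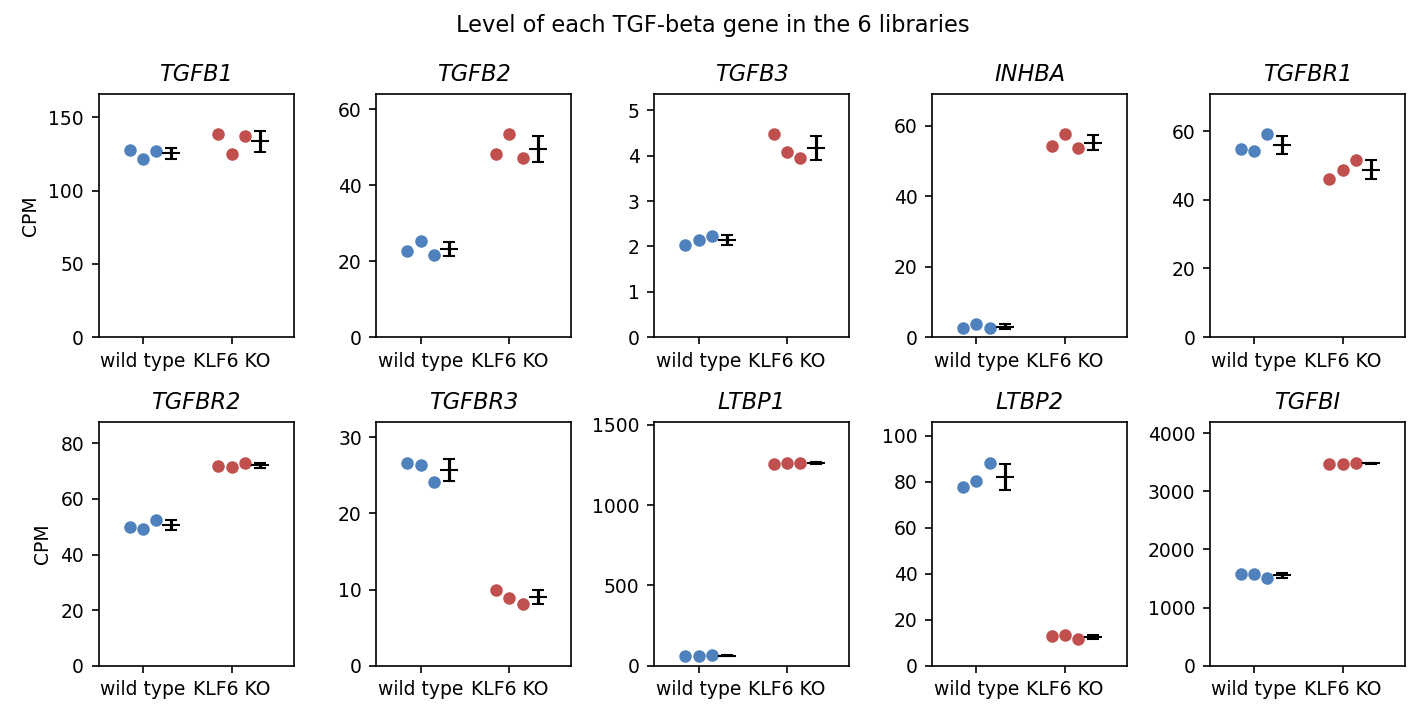
Level of each of the 10 genes in CPM (vertical axis, from 0) in the 3 wild-type (blue) and 3 knockout (red) libraries, with mean and SD in black. The groups part for 9 genes, widest for LTBP1 and INHBA, and overlap for TGFB1.

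Among the ligands, TGFB1 (ENSBTAG00000020457, chromosome 18, 50484512 to 50508692, in coordinates of the count table, which names no genome build) was the most abundant. It stood at 128, 121 and 127 CPM in wild-type libraries and at 139, 125 and 137 CPM in knockout libraries. The lowest knockout library lay below 2 of the wild-type libraries, so the groups overlapped. The log2 fold change was 0.09 ± 0.05 (SE) with a 95% interval from -0.01 to 0.19 (edgeR adjusted p = 0.1108). Without knockout replicate 2, the library with the lowest knockout value, the change was 0.14 and passed the test (edgeR adjusted p = 0.03732). The TGFB1 locus overlaps CCDC97, a gene on the opposite strand with 5082 reads in all libraries, and an unnamed opposite-strand locus with 63 reads, and strand use in the counting is not stated, so reads from the shared stretch cannot be told apart. TGFB1 is the only one of the 10 genes that is not in the authors' deposited table.

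TGFB2 (ENSBTAG00000005359, chromosome 16, 21808003 to 21900539), the ligand isoform whose latent form lacks the integrin-binding motif found in the other two, stood at 22.7, 25.3 and 21.7 CPM in wild type and at 48.1, 53.4 and 47.2 CPM in knockout libraries. Every knockout library was above every wild-type library. The rise was 2.13-fold, a log2 fold change of 1.09 ± 0.08 (edgeR adjusted p = 4.124e-10), and the authors' deposited table gives 1.11. TGFB3 (ENSBTAG00000012004, chromosome 10, 87237844 to 87271480) was the rarest ligand, with 36, 40 and 41 reads in wild-type libraries and 78, 75 and 71 reads in knockout libraries. It rose from 2.14 ± 0.104 to 4.17 ± 0.272 CPM, a log2 fold change of 0.96 ± 0.18 (edgeR adjusted p = 0.0001262), with no overlap between the groups. The TGFB3 locus shares 8133 bases with IFT43, an opposite-strand gene of intraflagellar transport with 868 reads in all libraries. IFT43 fell from 9.08 ± 0.792 to 6.92 ± 0.561 CPM. Because strand use in the counting is not stated, reads from the shared stretch cannot be told apart for TGFB3 either.

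INHBA (ENSBTAG00000048508, chromosome 4, 79288772 to 79302445) encodes the beta-A subunit that dimerises to activin A, a ligand that signals through its own receptors to the same SMAD2 and SMAD3. It had 47, 69 and 49 reads in wild-type libraries against 945, 1061 and 964 in knockout libraries. In CPM these are 2.65, 3.70 and 2.68 in wild type and 54.2, 57.7 and 53.7 in knockout. The knockout libraries were 18.3-fold higher, a log2 fold change of 4.19 ± 0.11 (edgeR adjusted p = 2.475e-16), and 97.4% of tested genes changed less. The other activin subunit, INHBB, stood at 62.1 ± 4.26 CPM in wild type and 61.3 ± 2.21 CPM in knockout and did not pass the test, and INHA, the alpha subunit that turns these into inhibins, had 0 reads. Per length, INHBA made up 3.84% ± 0.971 of the summed INHBA and INHBB level in wild-type libraries and 42.4% ± 1.83 in knockout libraries.

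The signalling receptors moved by less than 1.5-fold and in opposite directions. TGFBR1 (ENSBTAG00000018035, chromosome 8, 64107418 to 64179245), the type I receptor kinase, stood at 54.7, 54.2 and 59.1 CPM in wild type and 46.2, 48.8 and 51.5 CPM in knockout libraries. The groups did not overlap, and the fall was 1.15-fold, a log2 fold change of -0.20 ± 0.06 (edgeR adjusted p = 0.008544). This call was lost without knockout replicate 1 (-0.16, edgeR adjusted p = 0.05819), the library with the lowest value, and the authors' deposited table gives an adjusted p of 0.03421 for TGFBR1. TGFBR2 (ENSBTAG00000019832, chromosome 22, 5091037 to 5184321), the type II receptor that binds ligand first, stood at 49.8, 49.3 and 52.5 CPM in wild type and at 71.8, 71.3 and 73.1 CPM in knockout libraries. It rose 1.43-fold, a log2 fold change of 0.51 ± 0.05 (edgeR adjusted p = 1.321e-07). Both changes lie under 1.5-fold, so neither receptor could pass a test against a change of that size (edgeR adjusted p = 1 for both). Of all tested genes, 21.6% changed less than TGFBR1 and 51.2% changed less than TGFBR2.

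TGFBR3 (ENSBTAG00000024269, chromosome 3, 51501752 to 51709606), also called betaglycan, is a co-receptor that presents TGF-beta2 and inhibin and has no kinase of its own. It stood at 26.7, 26.4 and 24.1 CPM in wild type and at 9.98, 8.86 and 8.13 CPM in knockout libraries. All knockout libraries were lower, by 2.86-fold, a log2 fold change of -1.52 ± 0.10 (edgeR adjusted p = 1.019e-10). TGFBR3 fell in the same libraries in which TGFB2, the isoform it presents, rose.

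LTBP1 and LTBP2 share their domain plan but not their role: LTBP1 binds the latent TGF-beta complex covalently, while LTBP2 is a microfibril protein that is not known to bind it. LTBP1 (ENSBTAG00000019839, chromosome 11, 15473232 to 15930122) had 1047, 1141 and 1222 reads in wild-type libraries and 21873, 23277 and 22676 in knockout libraries. In CPM these are 59.1, 61.1 and 66.7 in wild type and 1255, 1265 and 1263 in knockout. The gene rose 20.2-fold, a log2 fold change of 4.34 ± 0.05 (edgeR adjusted p = 1.144e-20), and 97.6% of tested genes changed less. Its levels in knockout libraries spread by only 5.48 CPM (SD). LTBP2 (ENSBTAG00000021957, chromosome 10, 85791017 to 85898441) went the other way, from 77.4, 80.2 and 88.2 CPM in wild type to 12.8, 13.2 and 11.6 CPM in knockout. This is a 6.53-fold fall, a log2 fold change of -2.71 ± 0.08 (edgeR adjusted p = 1.055e-15), with no overlap between the groups. The authors' deposited table gives 4.35 for LTBP1 and -2.69 for LTBP2.

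TGFBI (ENSBTAG00000009513, chromosome 7, 47430704 to 47501496), a secreted adhesion protein named for its induction by TGF-beta, was the most abundant of the 10. It stood at 1577, 1573 and 1503 CPM in wild type and 3465, 3476 and 3492 CPM in knockout libraries. All knockout libraries were higher, by 2.24-fold, a log2 fold change of 1.17 ± 0.04 (edgeR adjusted p = 1.014e-14). The levels did not overlap for 9 of the 10 genes, beside 76.2% of all tested genes.

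**Figure D2:**
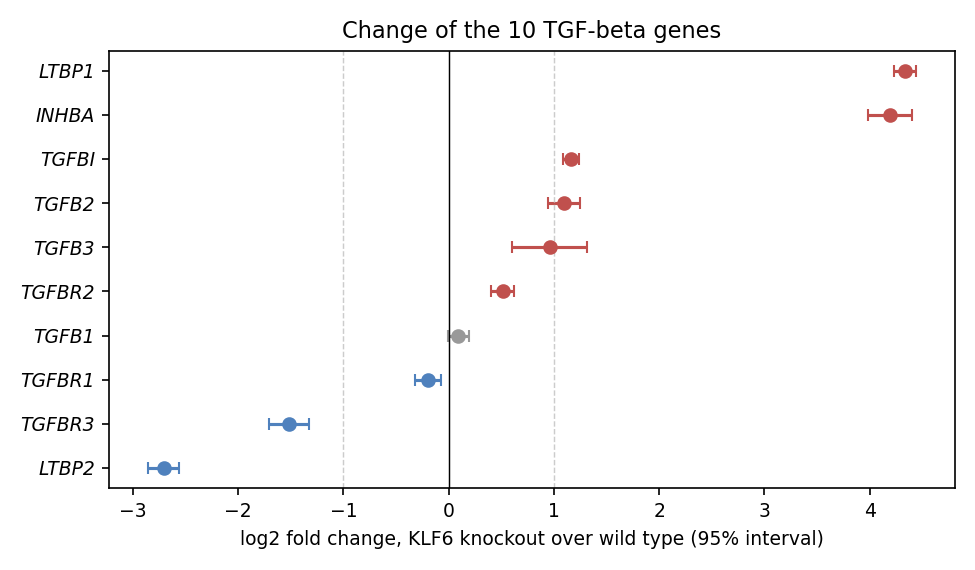
Log2 ratio of knockout to wild-type level (horizontal axis) with its 95% interval for the 10 genes, red for genes that rose, blue for genes that fell and grey for TGFB1, which did not pass the test. Dashed lines mark a 2-fold change, which 4 genes pass upward (LTBP1, INHBA, TGFBI and TGFB2) and 2 downward (TGFBR3 and LTBP2).

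Levels of different genes were compared per kilobase of the length that the count table gives. In wild type the order in CPM per kilobase ran from TGFBI (541 ± 14.5) over TGFB1 (42.4 ± 1.19), TGFBR1 (25.8 ± 1.25) and LTBP2 (12.1 ± 0.826) to TGFB2 (9.47 ± 0.748), LTBP1 (9.27 ± 0.591) and TGFBR2 (8.99 ± 0.308). TGFB2, LTBP1 and TGFBR2 lay within their spread of each other. TGFBR3 (5.17 ± 0.287), INHBA (0.787 ± 0.156) and TGFB3 (0.619 ± 0.0302) came last, the final pair about 1 SD of INHBA apart. In knockout libraries LTBP1 (188 ± 0.815) moved to the place behind TGFBI (1213 ± 4.69) and ahead of TGFB1 (45.2 ± 2.47). TGFBR1 (22.5 ± 1.22) and TGFB2 (20.2 ± 1.37) lay closer together than the sum of their SDs, followed by INHBA (14.4 ± 0.563) and TGFBR2 (12.8 ± 0.160). At the low end LTBP2 (1.85 ± 0.125) and TGFBR3 (1.81 ± 0.187) did not differ beyond their spread, and TGFB3 (1.21 ± 0.0787) was last.

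**Figure D3:**
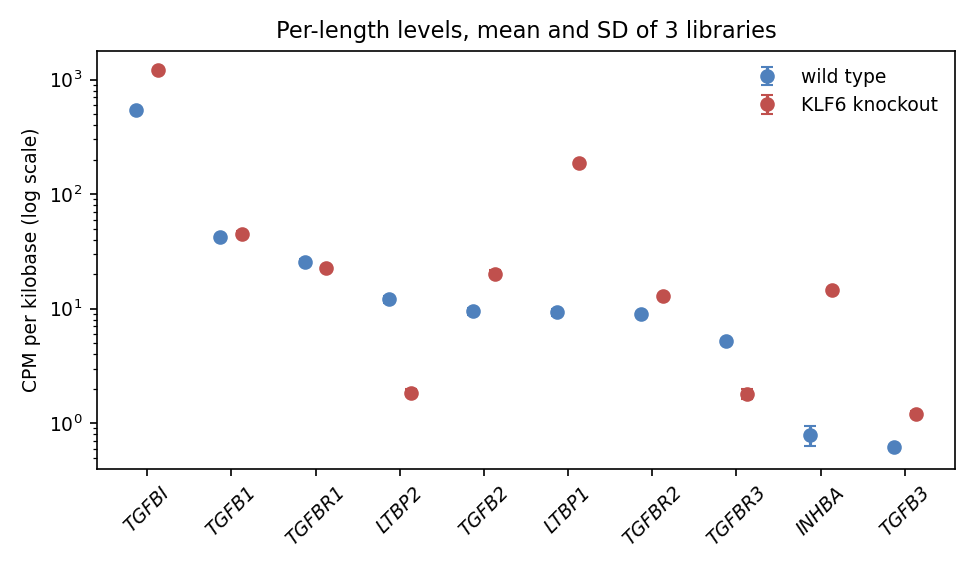
Mean level per kilobase of gene length on a log scale (vertical axis) with SD of 3 libraries, in wild type (blue) and knockout (red), with the genes ordered by their wild-type level. LTBP1 goes from the middle of the order (9.27) to the second place (188), and LTBP2 from 12.1 to 1.85.

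Ratios between genes of the same library do not depend on how libraries are scaled to each other, and 6 of them were compared. The per-length ratio of LTBP2 to LTBP1 was 1.30, 1.30 and 1.31 in wild-type libraries and 0.0101, 0.0103 and 0.00908 in knockout libraries, which is 132-fold lower. INHBA to TGFB1 rose 17.4-fold, from 0.0186 ± 0.00426 to 0.321 ± 0.0307. The ratio of the co-receptor TGFBR3 to TGFBR2 was 4.09-fold lower in knockout libraries (0.141 ± 0.0157 against 0.577 ± 0.0503), and that of TGFBR2 to TGFBR1 was 1.64-fold higher (0.571 ± 0.0268 against 0.349 ± 0.00489). The ratios of TGFB2 and TGFB3 to TGFB1 were 2.00-fold and 1.83-fold higher. For each ratio the genotypes did not overlap, and an exact two-sided permutation test gave p = 0.1 for all 6 (0.1 after adjustment over the 6), the smallest value that 3 libraries against 3 allow.

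Within the 3 ligands, the per-length share of TGFB1 was 80.8% ± 1.57 in wild-type and 67.8% ± 2.58 in knockout libraries. TGFB2 took 18.0% ± 1.57 and 30.4% ± 2.58, and TGFB3 took 1.18% ± 0.0646 and 1.81% ± 0.0979. The summed per-length level of the 3 ligands was 52.5 ± 0.538 CPM per kilobase in wild type and 66.6 ± 1.23 in knockout, a ratio of 1.27. The shift was larger in the LTBPs, a set of 4 to which LTBP3 and LTBP4 were added after the values were seen. The set includes LTBP2, which is not known to bind the latent complex. LTBP3 held 58.1% ± 0.178 of their per-length level in wild type and 6.88% ± 0.464 in knockout libraries, while LTBP1 held 13.5% ± 0.135 and 87.7% ± 0.544. The share of LTBP2 went from 17.6% ± 0.229 to 0.864% ± 0.0552 and that of LTBP4 from 10.7% ± 0.215 to 4.55% ± 0.175. The summed level of the 4 was 3.13 times as high in knockout libraries. For each of these shares and sums the genotypes did not overlap.

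**Figure D4:**
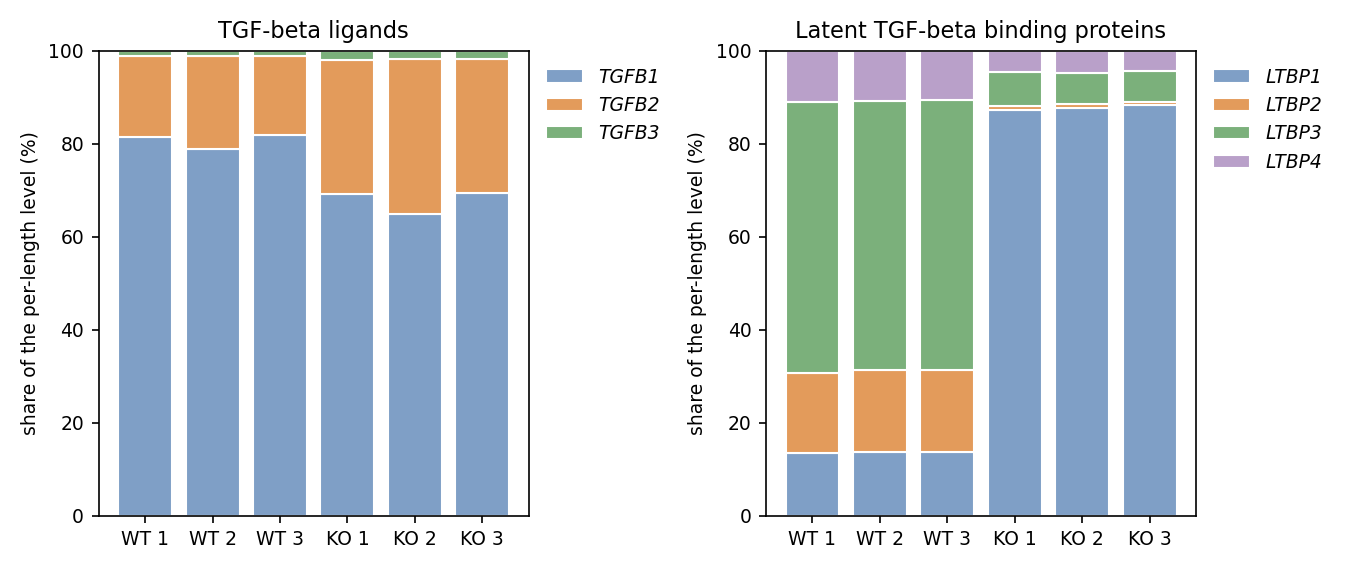
Share of each gene in the summed per-length level (vertical axis, percent) of the 3 TGF-beta ligands (left) and the 4 latent TGF-beta binding proteins (right) in the wild-type (WT) and knockout (KO) libraries. TGFB1 keeps the largest ligand share in every library, while the largest LTBP share passes from LTBP3 in wild type to LTBP1 in knockout.

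Of 6 other latency and microfibril genes, 3 were tested. LTBP3, which also binds latent TGF-beta, fell from 229 ± 13.1 to 85.0 ± 5.86 CPM, and FBN1, the fibrillin on which LTBPs are laid down, fell from 25.1 ± 1.98 to 4.11 ± 0.558 CPM. LTBP4 rose by a log2 fold change of 0.41 ± 0.06. LRRC32, which holds latent TGF-beta on the cell surface, had too few reads for the main test, with 38 in knockout and 0 in wild-type libraries. With the wild-type group set at 3 counts, knockout was at least 12.9-fold higher. FBN2 and NRROS had 0 reads in every library.

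Of 17 genes whose proteins cleave the precursor or release the latent ligand, 16 were tested, 10 rose and 5 fell, with a median log2 fold change of 0.48. Over all tested genes, 37.1% rose, 37.6% fell and the median was -0.01, which are the values to read this count and those of the next lists against. MMP14, a membrane-bound matrix protease, had 31601 reads in knockout libraries against 2 in wild type, a ratio of 16073 with a 95% counting interval from 4449 to 132722. PCSK5, a furin-like convertase (3.15 ± 0.12), MMP2 (2.77 ± 0.50, on 49 against 7 reads) and PLAT, a plasminogen activator (1.96 ± 0.04), rose as well. Of the integrin beta subunits that pair with alpha-v, ITGB3 fell from 178 ± 9.36 to 1.45 ± 0.317 CPM, ITGB6, the epithelial subunit known to activate latent TGF-beta, from 777 ± 16.4 to 181 ± 1.75 CPM, and ITGB5 by a log2 fold change of -1.20 ± 0.05. ITGAV, the alpha-v subunit, named here after its value was seen, rose by a log2 fold change of 0.55 ± 0.05. PLAU, the urokinase gene, fell (-0.79 ± 0.04), ITGB1 did not pass the test (0.09 ± 0.04, edgeR adjusted p = 0.05012), and PLG had 0 reads.

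Of 15 other receptors and co-receptors, 12 were tested, 3 rose and 2 fell, with a median log2 fold change of -0.13. The large differences were in the neuropilins, co-receptors shared with semaphorins and vascular growth factors: NRP2 rose from 0.435 ± 0.240 to 68.0 ± 2.12 CPM and NRP1 fell from 24.0 ± 1.61 to 1.35 ± 0.448 CPM. ACVR1 (0.44 ± 0.06) and BMPR2 (0.27 ± 0.05), receptors of bone morphogenetic proteins, rose, and CD109, a co-receptor known to inhibit TGF-beta signalling, fell (-0.57 ± 0.05). The activin receptors did not pass the test, with ACVR2A at 9.21 ± 0.157 CPM in wild type and 7.995 ± 1.46 CPM in knockout and, named after their values were seen, ACVR1B at 8.85 ± 1.53 and 7.61 ± 0.654 CPM and ACVR2B at 5.52 ± 0.241 and 5.19 ± 0.0793 CPM. The bone morphogenetic protein receptors BMPR1A and BMPR1B did not pass it either. ACVRL1 and BAMBI had too few reads (1 and 6 over all libraries), and ACVR1C had 0.

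Of 22 other ligands and extracellular inhibitors of the superfamily, 16 were tested, 8 rose and 7 fell, with a median log2 fold change of 0.33. Binders of ligands moved in both directions. FSTL3, which binds activin, rose from 376 ± 14.4 to 1213 ± 33.5 CPM, whereas its relative FST, named here after its value was seen, fell from 1406 ± 12.6 to 857 ± 16.7 CPM. DCN, a proteoglycan that binds TGF-beta, fell from 1133 ± 106 to 229 ± 6.26 CPM, and the related BGN rose from 0.111 ± 0.0990 to 4.26 ± 1.04 CPM. The bone morphogenetic protein antagonists CHRD (3.15 ± 0.30, on 177 against 20 reads) and NOG (2.58 ± 0.33, on 102 against 17 reads) rose. Among the ligands, BMP2 (-3.61 ± 0.23), the embryonic morphogen NODAL (-2.28 ± 0.53, on 8 against 41 reads) and the stress-induced GDF15 (-1.92 ± 0.28) fell. The ligands BMP7 (0.68 ± 0.06, from 49.7 ± 2.43 to 79.9 ± 2.81 CPM) and GDF11 (0.79 ± 0.14, from 4.45 ± 0.293 to 7.68 ± 0.749 CPM) rose, and BMP4 fell (-0.56 ± 0.13). These 3 are named after their values were seen. BMP3 had 2 reads, and BMP6, MSTN, LEFTY2 and GREM1 had 0.

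Of 17 SMAD proteins and their regulators, 15 were tested, 7 rose and 3 fell, which is 10 called of 15 beside 74.6% of all tested genes. None of the 15 passed the test with a 2-fold change, beside 22.3% of all tested genes. SMURF2, a ubiquitin ligase that targets receptors and SMADs, stood at 0.63 ± 0.05 on the log2 scale, and ZFYVE9, which brings SMADs to the receptors, at -0.40 ± 0.06. The receptor-activated SMAD3 stood at -0.31 ± 0.07 and SMAD2 at -0.17 ± 0.05. TGIF1 (0.59 ± 0.05), STRAP (0.44 ± 0.05) and SKIL (0.27 ± 0.08) rose, and the median of the 15 was 0.16. SMAD1, SMAD6 and SKI did not pass the test. Of 20 genes known to be induced by TGF-beta in epithelial cells, 18 were tested, 9 rose and 8 fell, with a median log2 fold change of 0.18. At least 2-fold changes were called for 6 higher and 2 lower of the 18, beside 10.8% higher and 11.5% lower of all tested genes. TAGLN, an actin-binding protein, rose by 6.52 ± 0.06 and ITGA5, a fibronectin receptor subunit, by 1.39 ± 0.04 on the log2 scale. COL1A2 had 278 reads against 0, at least 94.3-fold higher with the wild-type group set at 3 counts. COL7A1, which the count table marks as a pseudogene, fell (-4.24 ± 0.17), as did the growth factor binding protein gene IGFBP3 (-2.26 ± 0.24), the AP-1 subunit gene JUNB (-0.47 ± 0.05) and the collagen gene COL1A1 (-0.46 ± 0.18). PDGFB did not pass the test (0.10 ± 0.05). Without knockout replicate 3, 5 of these genes fell in place of 8. COL4A1 had 2 reads, SMAD9 had 14 against 1, and PMEPA1 and CDKN2B were not matched to a row.

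The tested genes next to LTBP1, INHBA and LTBP2, the genes with the largest changes, changed less than they did. So did 97.6%, 97.4% and 94.9% of all tested genes, and an effect of the region was not tested. LTBP1 (4.34) lies between TTC27 (-0.25 ± 0.08) and FAM98A (0.43 ± 0.06), and INHBA (4.19) between GLI3 (-0.29 ± 0.08) and SUGCT (-0.13 ± 0.25), counting tested genes with a symbol. LTBP2 (-2.71) lies between ISCA2 (-0.19 ± 0.11) and AREL1 (-0.70 ± 0.07). LTBP2 and TGFB3 lie 1339 kilobases apart on chromosome 10, whose 606 tested genes had a median log2 fold change of -0.28, and went in opposite directions. TGFB2 (1.09) has a neighbour that rose, RRP15 (0.88 ± 0.09), and one that fell, LYPLAL1 (-0.55 ± 0.08), and TGFBR3 (-1.52) has BTBD8 (-1.15 ± 0.18) and CDC7 (-0.17 ± 0.08). TGFBR1 (-0.20) lies next to COL15A1, a collagen gene that rose by 2.08 ± 0.06. TGFB1 and TGFBR1, the genes with the smallest changes, lie on chromosomes with medians of 0.32 and 0.18. Relative to these medians they stood at -0.23 and -0.37. The median of chromosome 3, which holds TGFBR3, was -0.39, and relative to it TGFBR3 stood at -1.12.

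**Figure D5:**
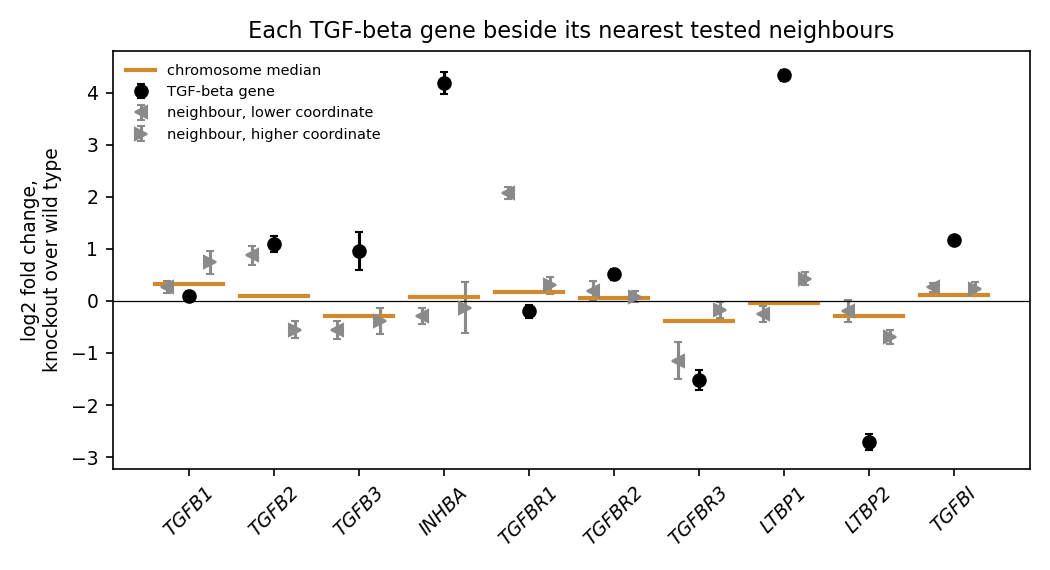
Log2 ratio of knockout to wild-type level (vertical axis) of each of the 10 genes (black) beside its nearest tested neighbours at lower and higher coordinates (grey triangles), with 95% intervals, and the median of its chromosome (orange bar). LTBP1, INHBA and LTBP2 stand apart from both neighbours, while TGFBR3 (-1.52) and its lower neighbour BTBD8 (-1.15) are both below 0.

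The genes whose centred log2 CPM profile over the 6 libraries lay closest to LTBP2 were ALS2CL (root mean square distance 0.0348, from 77.5 ± 8.05 to 12.1 ± 0.721 CPM) and SAT1 (0.0689). Closest to TGFBR3 were DUOXA1 (0.0304) and ALDH6A1 (0.04998). For LTBP1 they were DOK5 and APBA2, and for INHBA they were UNC80 and APLP1, all with between 0 and 0.0536 CPM in wild type, where the distance depends on the 0.5 CPM added before taking logs. Among the 12061 genes with at least 10 reads in every library, a limit set after the data were seen, LTBP1 lay closest to LMCD1 (distance 0.118) and SPARC (0.130), and INHBA to SPARC (0.181) and NELL2 (0.182). These distances are descriptions over 6 libraries that share the genotype difference.

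Markers of cell types moved with genotype too, and their part in the results above was not tested. The summed level of 8 luminal markers was 10878 to 12206 CPM in wild-type and 3928 to 4087 CPM in knockout libraries (0 of 7 tested rose and 5 fell), and that of 6 basal markers was 6116 to 6190 and 2780 to 2849 CPM (2 rose and 4 fell). Fibroblast markers summed to 1054 to 1249 CPM in wild type and 245 to 257 CPM in knockout over 8 genes, of which 1 rose and 4 fell. DCN, which is also in the inhibitor list above, made up most of the sum. The fibroblast markers PDGFRA (1194 reads in wild type and 415 in knockout, 21.8 ± 1.38 and 7.70 ± 0.821 CPM), COL3A1 (783 and 267 reads) and COL1A1 (232 and 166 reads) were read in both genotypes and fell. COL1A2 rose, VIM was not called (106 and 151 reads), and PDGFRB with 6 reads and LUM with 11 over all libraries were not tested. Endothelial markers summed to 4.50 to 5.79 CPM in wild type and 30.8 to 32.5 CPM in knockout over 5 genes, of which PECAM1 rose and VWF and TEK fell, with KDR at 0 reads. Leukocyte (7.39 to 9.25 against 4.70 to 5.32 CPM over 5 genes, 1 higher and 1 lower, PTPRC at 0), pericyte (96.1 to 118 against 50.6 to 51.1 CPM over 4 genes, 1 higher and 2 lower, RGS5 at 0) and adipocyte markers (1.75 to 2.35 against 1.89 to 4.23 CPM over 3 genes, 0 called, ADIPOQ at 0) had smaller sums than the fibroblast markers in both genotypes.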

How the data were processed

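The deposited count table gives raw counts of 6 libraries by gene, with symbols, coordinates and gene lengths. The tools named in the submitters' processing notes are HISAT2 2.0.5 and featureCounts 1.5.0-p3. Genome build, annotation and strand setting, not given in the sources used here, could not be checked. The authors' deposited table of their own comparison holds a normalized signal, a log2 fold change and p-values of a test not named there. It lists only genes past their threshold. DESeq2, run here as an alternative, gave the same log2 fold changes for TGFB2 (1.11), LTBP1 (4.35) and LTBP2 (-2.69). The deposited values are therefore not a separate check.

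From the counts, knockout was compared with wild type in edgeR 4.0.16 (R 4.3.3, limma 3.58.1) with TMM scaling, filterByExpr (minimum count 10, minimum total 15), robust dispersions, the quasi-likelihood F-test and p-values adjusted by Benjamini-Hochberg over 13390 genes at 0.05. Unnamed loci stayed in and held 0.807% to 0.884% of the counts. CPM uses TMM-scaled totals. The SE was derived from the test (size of the log2 fold change divided by the root of its F), and intervals are 1.96 SE to either side. Intervals for rare transcripts cover counting error only. Where a group had 0 reads it was set at 3 counts. The fold is then given as a lower limit, which leaves out the counting error of the other group. CCN1 and CCN2 were matched through older symbols in a RefSeq table of assembly ARS-UCD2.0. The fit was tested on simulated data with few changed genes and a common dispersion for all genes. In the real data most genes were called, so the simulation does not check the error rate there.

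The 10 genes, the lists and the naming rule were chosen with earlier results of these data known. The rule named all 10 genes and, of each list, at most 4 genes per direction with the largest called change, up to 3 abundant genes not called and those not tested. The values of 1 listed gene are not reported here. Alternatives covered scaling, DESeq2 1.42.0, limma-voom, filters, a 1.5-fold null, summed rows, a replicate block and each library left out.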

Additional observations from a re-analysis of the deposited data

How the results depend on the processing

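Scaling, the count filters, DESeq2, limma-voom and summing rows of a symbol left 6 genes higher, 3 lower and 6 changed by at least 2-fold. With the test against a 1.5-fold change, 5 were higher and 2 lower, and calls over all genes dropped to 2040 higher and 2136 lower, from 4963 and 5028. With a library left out, the higher genes numbered 6 to 7 and the lower 2 to 3, and calls over all genes were 4746 to 5115 and 4746 to 5019. Without division by length, the ligand shares in knockout were 71.3% (TGFB1), 26.5% (TGFB2) and 2.22% (TGFB3), and in wild type 83.2%, 15.4% and 1.42%. The log2 fold change of LTBP1 stayed between 4.29 and 4.39, that of INHBA between 4.11 and 4.37, that of LTBP2 between -2.76 and -2.65 and that of TGFB1 between 0.04 and 0.14 over 15 alternatives. With the replicate number as a block, 4938 genes were higher and 4956 lower, and the same counts of 6 and 3 held for the 10 genes, with no call among them changed. Deviations of same-numbered libraries correlated at -0.05, 0.08 and -0.02, and 1 of 3 knockout libraries correlated best with its own number. These values show no pairing by number, but with 3 libraries per genotype they cannot exclude a shared culture or batch.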
